A study of Mus musculus with 8 samples.

Results

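Chemokine receptors are G protein-coupled receptors of the cell surface that direct leukocytes along gradients of chemokines, small secreted proteins. Binding of a chemokine activates inhibitory G proteins, which turn on the cell's movement machinery, and kinases and arrestins then silence the receptor. T helper cells carry different sets of these receptors as they differentiate, and Ccr6, the receptor of Ccl20, is the one most closely associated with Th17 cells, the IL-17-producing subset that depends on the nuclear receptor ROR-γt. Transcripts of 9 chemokine receptors, Ccr6, Ccr2, Ccr4, Ccr7, Ccr8, Ccr9, Cxcr3, Cxcr4 and Cxcr6, were examined in Th17 cells that carried WT-ROR-γt or, in its place, the K187R mutant. They were picked by gene symbol out of 22829 genes listed, and all 9 were present with a mean normalized count of 10 or more, as were 16982 genes in all. The choice was made with earlier results of these data known, so their values are described here and are not independent evidence.

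CD4+ T cells, purified with magnetic beads from splenocytes of ROR-γt-/- mice, were given 1 of these forms by a lentivirus and polarized toward Th17. In K187R-ROR-γt an arginine replaces the lysine to which SUMO, a small protein tag, is attached. Both groups therefore share the ROR-γt deletion and the transduction and differ in the form of ROR-γt that was put back. The description of the series speaks instead of WT and mutant mice, and the labels of reconstituted cells, which are followed here. RNA seq was available for 4 WT and 4 K187R samples, with no sample of untransduced cells among them. No age of the animals is given in the sources used here, and the labels do not say whether the replicates came from separate animals or cultures, so that p-values measure only the spread between these samples.

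Depth ran from 52456804 to 74676721 reads on genes in a sample. A normalized count is a gene's reads divided by the size factor of the sample, so that 3 reads were worth 2.54 to 3.56 normalized counts. T cell transcripts were abundant in every sample, with Cd4 between 15147 and 20882 normalized counts. Neither the deletion nor the mutation can be checked with counts over whole genes. Transcripts of other cells were also present. The 5 myeloid markers, led by the macrophage lysozyme gene Lyz2, summed to 20336 to 61225 in WT and 35204 to 64257 in K187R, and none of them was at 0 in any sample. The 3 dendritic cell markers summed to 851 to 1739 and 1180 to 2553, and the 4 B cell markers to 262 to 1066 and 310 to 1253. The 2 CD8 T cell markers summed to 403 to 1025 and 387 to 1141, the gamma delta T cell gene Trdc had 829 to 1260 and 980 to 1266, and the 3 NK cell markers summed to 53.5 to 384 and 40.7 to 435, with Ncr1 at 0 in 3 samples. In such bulk samples, fewer cells of a type and less RNA per cell cannot be told apart. Over all genes the samples fell into 3 sets that cut across the groups, hereafter set 1 (WT 1, WT 3, K187R 1), set 2 (WT 2, K187R 2, K187R 3) and set 3 (WT 4, K187R 4). Set 2 also stood apart by Xist, the transcript that silences an X chromosome, at 17290, 17373 and 13564 normalized counts against 3.56 to 23.7 in the other samples. What the sets represent is not given in the sources used here.

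To find out which receptors these cells carried, transcript levels were divided by the exonic length of each gene, which allows a rough comparison. That length covers the exons of all annotated transcripts of a gene together. Ccr7, the receptor that brings T cells into lymph nodes, stood far above the rest at 17702 ± 1781 normalized counts per kb (SD, n = 8). It was 4.02 times as high as the next gene, Ccr8, and its counts made up 56.6% to 65.7% of all counts on the 9 receptors in each sample. Ccr8, found on Th2 and regulatory T cells, had 4402 ± 779 per kb, and Cxcr4, the receptor of Cxcl12, had 3537 ± 493 per kb. Ccr8 was above Cxcr4 in 7 of 8 samples and their ranges overlapped. Cxcr6, which marks effector T cells that enter tissues, followed at 1783 ± 283 per kb.

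Cxcr3, the Th1-associated receptor, Ccr6, and Ccr4, which is found on Th2 and skin-homing T cells, formed a middle group at 807 ± 217, 774 ± 356 and 660 ± 182 per kb (SD, n = 8). Their order was not fixed, since Cxcr3 exceeded Ccr6 in 5 of 8 samples and Ccr6 exceeded Ccr4 in 5 of 8. By group means, the place of Ccr6 differed. In WT it had 514 ± 170 per kb (SD, n = 4), below Cxcr3 (718 ± 179) and Ccr4 (659 ± 219). In K187R it had 1034 ± 294 per kb (SD, n = 4), above Cxcr3 (896 ± 238) and Ccr4 (661 ± 171). This order of means did not hold in every sample. Ccr6 was below Cxcr3 in K187R replicate 4 and above Ccr4 in WT replicate 2. Ccr2, the receptor of monocyte-attracting chemokines, had 205 ± 72.0 per kb, and Ccr9, the gut-homing receptor, had 11.4 ± 4.32 per kb. Each of these stood below the gene before it in 8 of 8 samples. Ccr9 and Ccr2 have the longest exonic lengths of the 9, at 10.26 and 6.76 kb, which lowers their values per kb. Ccr9 is also the member whose level is least certain, because 21.45% of its exonic bases lie in other genes as well.

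**Figure D1:**
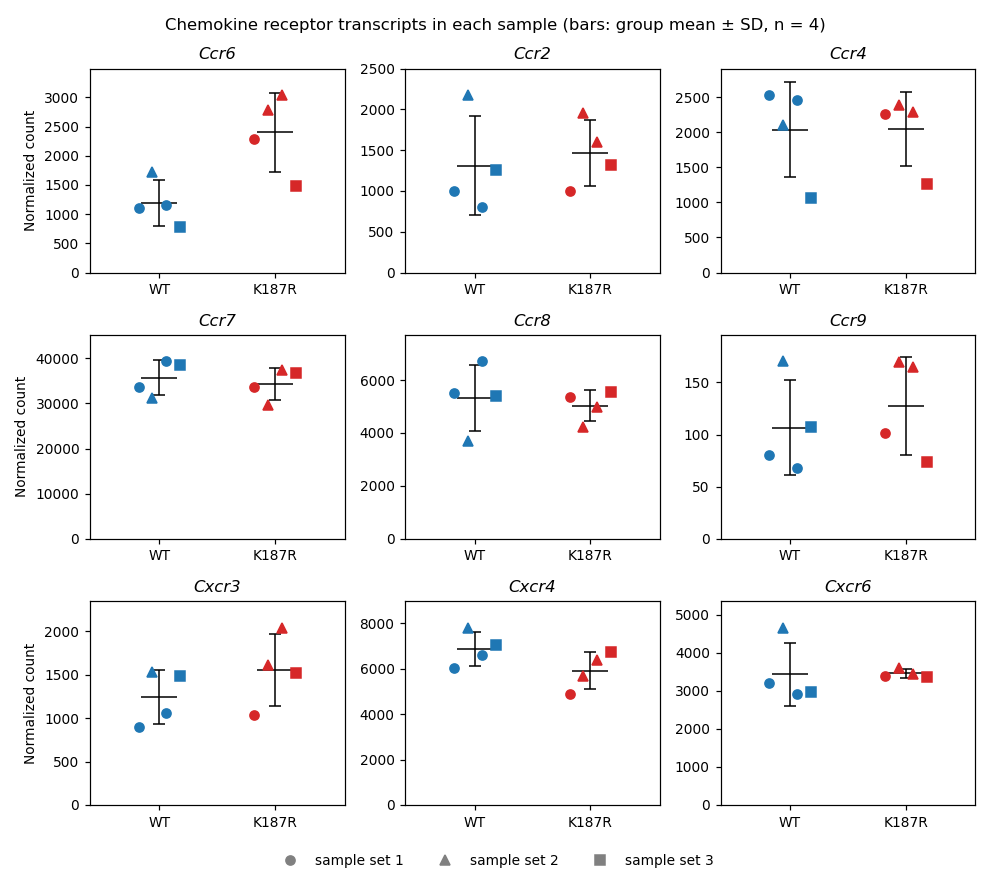
Normalized counts of the 9 chemokine receptors, 1 panel a gene with its own scale from 0, in WT (blue) and K187R (red). Each point is a sample, its shape gives the sample set, and the lines give the group mean ± SD (n = 4). For Ccr6, 3 K187R samples lie above every WT sample, while K187R replicate 4, at 1490, lies below WT replicate 2, at 1724.

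The receptor genes lie on 5 chromosomes. Ccr6 (ENSMUSG00000040899) is on chromosome 17 from 8236043 to 8257141 of GRCm38, plus strand. Ccr7 is on chromosome 11, Cxcr4 on chromosome 1 and Cxcr3 on chromosome X, and the other 5 are on chromosome 9. Of those, Ccr9, Cxcr6 and Ccr2 stand within 435 kb of each other, from 123678439 to 124113557.

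ROR-γt binds DNA at a core of AGGTCA preceded by an A/T-rich stretch. The RefSeq promoter windows of the receptors (GRCm38.p6, 250 bases before to 50 after the gene start) were searched for AGGTCA on both strands. The A/T-rich stretch was not part of the search. The windows of 8 receptors were matched, 9 windows in all, and Ccr7 was without an entry. The core was in 1 of the 9, a window of Ccr6, and 16.3% of all 32851 promoter windows hold it. That window, chr17:8235793-8236092 on the plus strand, is shown as the 1 that holds the core. Capitals mark the core, read as TGACCT on this strand, from 44 to 39 bases before the start (8235999 to 8236004).
Ccr6: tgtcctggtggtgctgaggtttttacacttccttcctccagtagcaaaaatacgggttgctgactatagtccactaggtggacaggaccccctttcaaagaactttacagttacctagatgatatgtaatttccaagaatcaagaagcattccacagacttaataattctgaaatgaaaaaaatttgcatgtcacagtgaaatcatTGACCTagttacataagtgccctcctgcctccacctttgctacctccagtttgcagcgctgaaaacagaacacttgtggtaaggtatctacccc

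The same window holds the STAT pattern TTCNNNGAA at 2 places, from 157 to 149 and from 120 to 112 bases before the start, a pattern found in 8.3% of all windows. STAT factors carry cytokine signals to the nucleus. The AP-1 pattern TGANTCA, bound by Fos, Jun and Batf dimers, was in the Ccr4 window from 143 to 137 bases before its start and in 7.81% of all windows. A second window of Ccr6, chr17:8242276-8242575, held none of the 3 patterns. These matches are descriptions of letters, and binding was not measured in these samples.

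To ask whether the receptors differed with the form of ROR-γt, each was compared between the groups. Ccr6 had the largest difference of the 9. Its normalized counts in replicates 1 to 4 were 1103, 1724, 1163 and 776 in WT and 2290, 2780, 3038 and 1490 in K187R. The 3 highest samples were K187R replicates 1, 2 and 3. The groups overlapped only through K187R replicate 4 and WT replicate 2, so Ccr6 was not among the 2.46% of tested genes whose groups do not overlap, and neither were the other 8 receptors. The means were 1191 ± 393 in WT and 2399 ± 681 in K187R (SD, n = 4 each), a log2 difference of 1.02 (standard error 0.27, 95% confidence interval 0.41 to 1.62), or 2.02-fold. In limma over all tested genes this gave an adjusted p of 0.921, and Ccr6 ranked 55 by p. In that comparison 0 genes passed the threshold of 0.05 (0.0%), while 746 had an unadjusted p under 0.05 (4.39%). Of the 9 receptors 1 was among the latter, Ccr6. DESeq2 called 31 genes (0.183%) and edgeR called 0 (0.0%), and Ccr6 was not among them, at adjusted p-values of 0.0537 and 0.945.

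Much of the spread of Ccr6 within each group followed the sample sets. In set 1 the K187R sample had 2290 against a WT mean of 1133. In set 2 the K187R mean was 2909 against 1724, and in set 3 the single samples had 1490 and 776. Every K187R sample was thus above every WT sample in 3 of 3 sets, by mean differences of 1.02, 0.75 and 0.94 on the log2 scale, as were 8.94% of tested genes. With the set as a term in limma the log2 difference was 0.90 (standard error 0.082), or 1.87-fold, and the adjusted p was 0.0157. The sets were themselves cut from the expression of these samples, at a fixed number of 3, and the p-value takes them as known beforehand. Ccr6 was the 1 gene called in that fit (0.00589% of those tested), and the gene ranked next had an adjusted p of 0.0710. The same fit in edgeR gave an adjusted p of 0.0148, also with Ccr6 as the 1 gene called, while DESeq2 with the set called 144 genes (0.848%), Ccr6 among them.

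That call rested on the full set of samples. With each sample left out in turn, the set-based log2 difference stayed between 0.83 and 0.98, but the adjusted p was under 0.05 in 3 of 8 fits. It was 0.0668 without WT replicate 1, 0.0510 without WT replicate 2, 0.0563 without WT replicate 4, 0.626 without K187R replicate 1 and 0.0596 without K187R replicate 4. Set 3 holds only WT replicate 4 and K187R replicate 4, so the fits without either rest on the same comparison. Both gave a log2 difference of 0.884 and are not separate checks. Without the 3 samples of high Xist, and with no term for the set, the log2 difference was 0.89 and the adjusted limma p was 1. Ccr6 is also carried by B cells and some dendritic cells. The summed B cell and dendritic cell markers were likewise higher in K187R in 3 of 3 sets, by 0.59, 0.08 and 0.24 and by 0.46, 0.48 and 0.31 on the log2 scale. The myeloid markers differed by 0.78, -0.14 and 0.07. Their part in the Ccr6 difference was not tested.

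**Figure D2:**
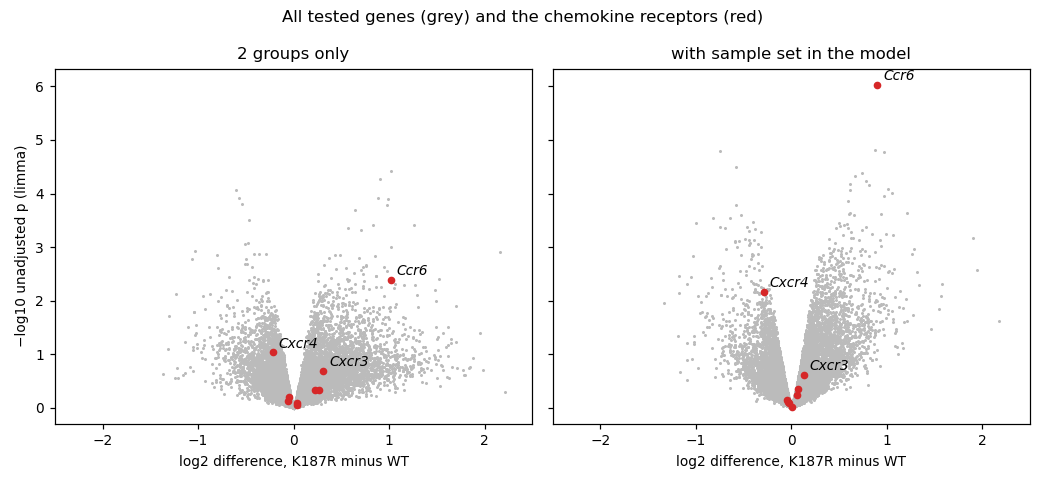
Log2 difference, K187R minus WT, against the -log10 of the unadjusted limma p for all tested genes (grey) and the 9 receptors (red), with the groups alone (left) and with the sample set in the model (right). Ccr6 ranks 55 on the left and 1 on the right, where its log2 difference is 0.90.

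Cxcr4 was the other receptor for which, in every set, all K187R samples lay on the same side of all WT samples. CXCR4 keeps lymphocytes in the bone marrow and other tissues that make Cxcl12. It had 6018, 7814, 6625 and 7029 normalized counts in WT and 4878, 5662, 6397 and 6741 in K187R. The groups overlapped, with 2 K187R samples below every WT sample. The log2 difference was -0.22 (standard error 0.12, adjusted p = 0.921 from limma). Within sets it was -0.37, -0.38 and -0.06, and every K187R sample lay below every WT sample in 3 of 3 sets, as was so for 4.93% of tested genes. With the set in the model it was -0.29 (adjusted p = 0.404 from limma), which did not pass the threshold.

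Cxcr3, which responds to the interferon-induced chemokines Cxcl9 and Cxcl10, had 902, 1528, 1059 and 1484 normalized counts in WT and 1037, 1608, 2041 and 1517 in K187R. The samples of set 1 were the lowest of both groups. The groups overlapped in part, with K187R replicates 2 and 3 above every WT sample. The log2 difference of 0.31 (95% confidence interval -0.20 to 0.83, adjusted p = 0.921 from limma) was 0.13 with the set in the model. Within sets the mean difference was 0.09, 0.25 and 0.03, and in set 1 the K187R sample lay between the WT samples.

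Ccr2 had 1003, 2175, 799 and 1257 normalized counts in WT and 995, 1958, 1595 and 1316 in K187R. WT replicate 2 was the highest and WT replicate 3 the lowest of all, so that the WT group spanned the K187R group. Its log2 difference was 0.22 with the groups alone and -0.04 with the set in the model (adjusted p = 0.932 and 0.974 from limma). Ccr2 is strongly expressed by monocytes. Its 3 highest samples were those of set 2, whereas the summed myeloid markers were highest in the samples of set 3, and their part in the level of Ccr2 was not tested.

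Ccr9 was low, with 80.8, 170, 67.7 and 107 normalized counts in WT and 102, 169, 164 and 73.8 in K187R. The 3 highest samples were again those of set 2. The log2 difference of 0.26 (95% confidence interval -0.52 to 1.05, adjusted p = 0.932 from limma) shrank to 0.01 with the set in the model. Within sets it was 0.45, -0.03 and -0.53, so only set 1 was higher in K187R.

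Ccr4, the receptor of Ccl17 and Ccl22, followed the sets more closely than any other of the 9. Its counts were 2529, 2106, 2453 and 1060 in WT and 2254, 2383, 2290 and 1256 in K187R, where replicate 4 was the lowest sample of each group. The sample set held 96.2% of its variance on the log2 scale and the group 0.190%. The group means were nearly equal, at 2037 ± 677 and 2046 ± 529 (SD, n = 4 each), and the 95% confidence interval of the log2 difference, -0.63 to 0.71, leaves room for a change of either sign.

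Ccr7 and Ccr8 differed little between the groups. Ccr7 had 33666, 31155, 39313 and 38511 normalized counts in WT and 33682, 29637, 37427 and 36732 in K187R. It was the steadiest of the 9, its highest sample exceeding its lowest 1.33-fold, and its log2 difference was -0.05 (95% confidence interval -0.29 to 0.18, adjusted p = 0.956 from limma). Ccr8, the receptor of Ccl1, had 5498, 3681, 6707 and 5381 in WT and 5366, 4212, 4984 and 5545 in K187R. The highest and the lowest sample were both WT. Its log2 difference was -0.06 (95% confidence interval -0.44 to 0.32) with the groups alone and 0.06 with the set in the model.

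Cxcr6, the receptor of Cxcl16, had 3192, 4659, 2906 and 2978 in WT and 3396, 3610, 3444 and 3363 in K187R. The K187R samples lay close together, at 3453 ± 109, while WT replicate 2 exceeded every K187R sample and the other 3 WT samples lay below them. The log2 difference was 0.04 (95% confidence interval -0.28 to 0.35, adjusted p = 0.979 from limma) and took the opposite sign, -0.04, with the set in the model.

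**Figure D3:**
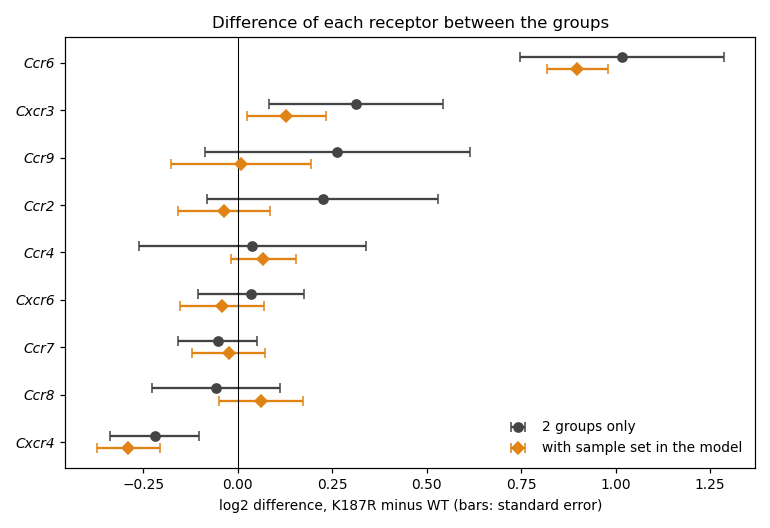
Log2 difference, K187R minus WT, of each receptor with the groups alone (grey circles) and with the sample set in the model (orange diamonds). Bars are standard errors from limma, and Ccr6 (1.02 and 0.90) and Cxcr4 (-0.22 and -0.29) are farthest from 0 in the second fit.

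To see how the receptors varied across the samples apart from the groups, the share of each gene's variance on the log2 scale that lay between sets was computed. The shares between sets and between groups overlap, because the sets hold the groups in unequal numbers. Beside Ccr4, the set held 90.1% for Ccr2, 88.1% for Cxcr3 and 85.2% for Ccr9, against a median of 51.6% over tested genes. It held 67.6% for Ccr8, 54.8% for Ccr6, 51.4% for Cxcr6, 35.7% for Ccr7 and 28.8% for Cxcr4. The group held 61.5% for Ccr6 and 32.1% for Cxcr4, and between 0.190% and 17.8% for the other 7, with a median of 9.11% over tested genes. The receptors did not follow the sets in 1 direction. Ccr2 and Ccr9 were highest in set 2, Ccr4 was lowest in set 3, and Cxcr3 was lowest in set 1.

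**Figure D4:**
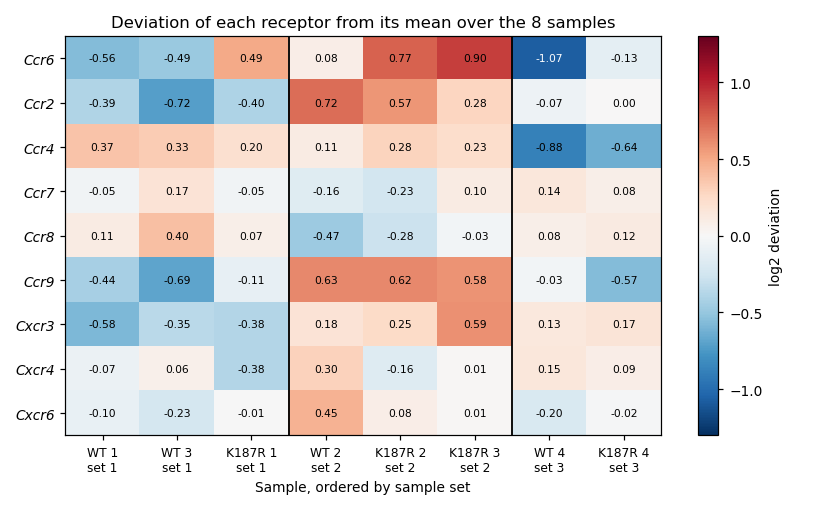
Log2 deviation of each receptor from its own mean over the 8 samples, with the samples ordered by set and black lines between sets. Ccr6 runs from -1.07 in WT replicate 4 to 0.90 in K187R replicate 3, and Ccr4 is lowest in both samples of set 3, at -0.88 and -0.64.

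Of the 14 other chemokine receptors examined, 9 passed the filter on low values, 0 were called in limma and 1, Cx3cr1, had an unadjusted p under 0.05. All 9 had a higher mean log2 value in K187R, as did 48.4% of tested genes. Their median log2 difference was 0.31 and fell to 0.17 with the set in the model. Over all tested genes the median was -0.01 with the groups alone. In the same fits the myeloid markers had medians of 0.46 and 0.25 and the dendritic cell markers 0.69 and 0.45. The part of such cells in these receptor values was not tested. Cxcr5, which leads T cells into B cell follicles, had 3119, 3559, 3598 and 3557 normalized counts in WT and 3418, 4216, 4676 and 3809 in K187R. Its log2 difference was 0.21 (adjusted p = 0.921 from limma). Cx3cr1, the receptor of fractalkine, had the smallest p of the 9, with 721, 618, 819 and 655 in WT and 961, 811, 900 and 806 in K187R. The log2 difference was 0.31 (adjusted p = 0.921 from limma) and was 0.37 with the set in the model (adjusted p = 0.294). Ccr1, a receptor of Ccl3, had log2 differences of 0.10 with the groups alone and -0.12 with the set in the model.

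Of 18 ligands of the 9 receptors, 11 were in the table and 8 were tested, with 0 called in limma and 0 at an unadjusted p under 0.05. Ccl20, the ligand of Ccr6, had 1790, 1365, 1507 and 812 normalized counts in WT and 2005, 1364, 1206 and 1149 in K187R. The groups overlapped, and the log2 difference was 0.09 (95% confidence interval -0.48 to 0.65, adjusted p = 0.969 from limma). Its lowest sample was WT replicate 4, as for Ccr6.

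The other ligands with the smallest p-values or the highest levels followed the sets. Ccl22, a ligand of Ccr4, had 607, 3179, 681 and 433 normalized counts in WT and 1178, 5657, 5989 and 565 in K187R, with all 3 samples of set 2 above the others. Its log2 difference was 1.33 with the groups alone (standard error 0.85, adjusted p = 0.921 from limma). Leaving out 1 sample moved it between 0.84 (without K187R replicate 3) and 1.975 (without K187R replicate 4). It was 0.87 without K187R replicate 2 and 0.53 without the samples of high Xist. With the set in the model it was 0.74 (adjusted p = 0.113 from limma). Ccl1, the ligand of Ccr8, had log2 differences of 0.98 and 0.59, and Cxcl16, the ligand of Cxcr6, had 0.51 and 0.24. For each of Ccl22, Ccl1 and Cxcl16, K187R was above WT in 3 of 3 sets. Among all tested genes, 8.94% had every K187R sample above every WT sample in 3 of 3 sets. These ligands were named by level or p in these same data, so they cannot fairly be set against that share. Over the 8 tested ligands the median log2 difference was 0.52, and 0.23 with the set in the model. The dendritic cell markers had medians of 0.69 and 0.45 and the myeloid markers 0.46 and 0.25, and their part in the ligand values was not tested.

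Among 20 chemokines that bind other receptors, 15 were tested and 0 were called in limma or had an unadjusted p under 0.05, with a median log2 difference of 0.58 that fell to 0.02 with the set in the model. Xcl1, a chemokine made by activated T cells and NK cells, was the most abundant and had log2 differences of -0.32 and -0.26. Ccl4 and Ccl3, which recruit leukocytes to inflamed tissue, had -0.23 and 0.30 with the groups alone and -0.14 and 0.06 with the set in the model. Cx3cl1, the ligand of Cx3cr1, had 1.26 and 0.74 at low counts, 27.9 to 138 in WT and 52.5 to 268 in K187R.

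Downstream of the receptors, 27 of 28 signalling genes were tested and 0 were called in limma, while 6 (against 4.39% of all tested genes) had an unadjusted p under 0.05. Their median log2 difference was 0.14. Dock2, the exchange factor that activates Rac during lymphocyte migration, had 31436, 32353, 32665 and 34684 normalized counts in WT and 37698, 36839, 37404 and 36500 in K187R. It was the 1 signalling gene of 27 whose groups did not overlap, against 2.46% of all tested genes, by a log2 difference of 0.18 (standard error 0.06, adjusted p = 0.921 from limma). Elmo1, the partner of Dock2, had 6077, 7036, 6519 and 6010 in WT and 7776, 8610, 8870 and 6770 in K187R. The log2 difference was 0.32 (adjusted p = 0.921 from limma). Rgs2, which shuts off G protein signals, had 1790, 1746, 1769 and 1447 in WT and 1100, 1100, 1181 and 1449 in K187R, a log2 difference of -0.49 (adjusted p = 0.921 from limma). Its groups overlapped only through the samples of set 3. Gnai2, the main inhibitory G protein subunit of lymphocytes, and Coro1a, an actin regulator, had log2 differences of 0.11 and 0.13.

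Of 20 transcription factors that act in T helper cells, 0 were called and 0 had an unadjusted p under 0.05. Tcf7, Maf and Irf4 had the highest counts, and their log2 differences were 0.21, 0.04 and 0.00. Batf, which opens chromatin for ROR-γt in Th17 cells, had 1873, 2236, 2185 and 1745 normalized counts in WT and 2138, 2400, 2839 and 2243 in K187R, a log2 difference of 0.26 (adjusted p = 0.921 from limma).

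To find the genes whose pattern was most like that of Ccr6, log2 values were correlated over the 8 samples with those of every tested gene. The 5 highest Pearson coefficients were 0.985 for Sephs2, a selenophosphate synthetase, 0.979 for Il17a, 0.974 for Elmo1, 0.973 for Nsg2 and 0.972 for Dock5, a Rac exchange factor related to Dock2. They are the top of 16982 genes in samples that share groups, sets and normalization, so they describe these 8 samples. Il17a, the cytokine that defines Th17 cells, had 2861, 4653, 2676 and 2087 normalized counts in WT and 4696, 6075, 5771 and 3528 in K187R. Like Ccr6 it was lowest in WT replicate 4, and WT replicate 2 exceeded K187R replicate 4. Of 6 Th17 markers, among them Rora, Il17a, Il17f, Il23r and Il1r1, 5 had a higher mean log2 value in K187R and 1 a lower one. In limma 0 of them were called and 4 had an unadjusted p under 0.05 (4.39% of all tested genes). The groups did not overlap for 1, Il1r1, against 2.46% of all tested genes (log2 difference 0.88, adjusted p = 0.344 from limma). The sizes differed among the genes that followed Ccr6, since the log2 difference was 1.02 for Ccr6, 0.74 for Il17a, 0.32 for Elmo1 and 0.16 for Sephs2.

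**Figure D5:**
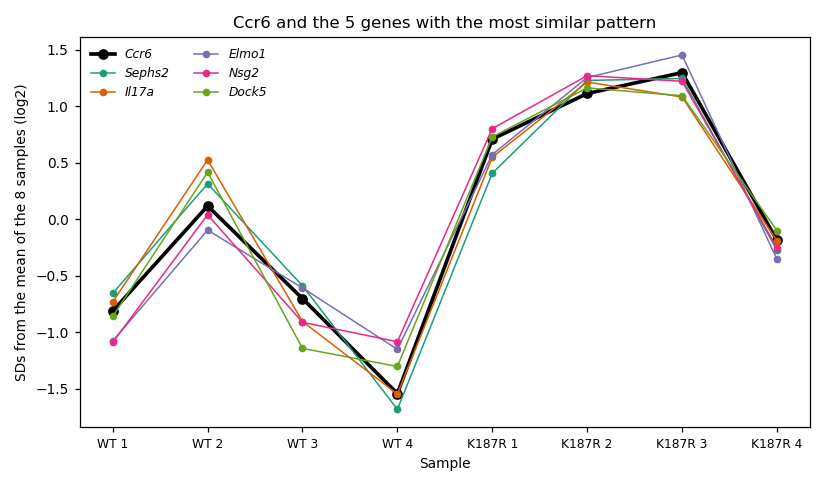
Log2 values of Ccr6 (black) and of the 5 genes with the most similar pattern, each in SDs from its own mean over the 8 samples. All 6 lines are lowest or near lowest in WT replicate 4, where Ccr6 had 776 normalized counts, and K187R replicate 4 falls below WT replicate 2 for all 6 genes.

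The other receptors had different companions. The 2 genes most like Ccr2 were Gcnt1, a glycosyltransferase that makes selectin ligands (0.994), and the phosphatase gene Ptpn22 (0.989). Ccr4 went with the kinase gene Prkce (0.994) and Tcrg-C2, a constant segment of the gamma T cell receptor chain (0.991). For Ccr7 they were Rnaseh2c (0.992) and Dok1 (0.991), and for Ccr8 Gm12251 (0.989) and Unc5cl (0.987). Ccr9 went with Mirt1 (0.981) and Best1 (0.981), Cxcr3 with Phf21b (0.992) and Rec8 (0.986), and Cxcr6 with Akap6 (0.984) and Cdkl2 (0.964). Cxcr4 had the lowest coefficients of the 9, 0.947 for the collagen prolyl hydroxylase gene P4ha2 and 0.931 for Asnsd1.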

How the data were processed

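RNA seq was performed by the authors on 4 WT and 4 K187R samples. Per the study's methods, reads were trimmed with Cutadapt, aligned to GRCm38 with HISAT2 and counted on GENCODE M15 genes with featureCounts. What was deposited is, for each gene and sample, a signal: reads over the sample's size factor (0.842 to 1.18). Whether strand was used is not given in the sources used here. The labels name a TruSeq kit in another spelling and the methods a KAPA poly-A kit. No column was left unused (0).

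All values (100%) were whole reads to within 0.001 read, so the reads were recovered. The main test was limma (lmFit, eBayes with trend) on log2(normalized count + 1), two-sided, for genes averaging 10 or more, with Benjamini-Hochberg adjustment over 16982 genes and a threshold of 0.05. Fold changes are on this scale, which understates changes of low genes. edgeR's quasi-likelihood test and DESeq2 on the recovered reads, other pseudocounts and filters, quantile normalization, eBayes without trend, the sample set, the replicate block and each sample left out were the alternatives. Fits with the set in edgeR or DESeq2, fits with the set and a sample left out, and fits without the samples of high Xist were chosen after seeing the data. The sets came from average linkage clustering of the samples over tested genes outside the chemokine lists, cut at 3 sets by choice. They were known from earlier work on these data.

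The receptors and gene lists were chosen with earlier results of these data known. Named are the 9 receptors, the 3 tested genes of highest mean and 2 of smallest p of each list, Ccl20, and the genes with the highest Pearson correlation to Ccr6 (5) and to each other receptor (2). Some results are left out here. Coordinates and exonic lengths are from GRCm38 with GENCODE M21, in which 22784 of 22829 identifiers were found, and promoter sequences are from RefSeq. The fits with the groups alone and with the replicate block were tested on simulated data, which held no sample sets. Fits with the set were not tested in this way. Depth was 52456804 to 74676721 reads per sample, and its floor of 3 reads covers counting error only. Fits were made in R 4.3.3 (DESeq2 1.42.0, edgeR 4.0.16, limma 3.58.1). Tables and plots were made in Python 3.11.15 (matplotlib 3.10.9, pandas 2.3.3, scipy 1.17.1, numpy 2.4.6).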

Additional observations from a re-analysis of the deposited data

Results flagged for a closer look

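In groups of 4 samples, the highest or lowest sample was compared with its nearest neighbour by Dixon's ratio of that gap to the whole range. Of 22 groups examined, 2 exceeded the 95% critical value for 4 samples, where 1.1 are expected by chance. Ccr4 in K187R replicate 4, at 1256 normalized counts, lay below the other 3 K187R samples, with a ratio of 0.885. The WT sample of the same set was also the lowest of its group, at 1060. Cxcr6 in WT replicate 2, at 4659 normalized counts, lay above the other 3 WT samples, with a ratio of 0.837.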

How the results depend on the processing

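The direction of Ccr6, Cxcr3 and Cxcr4 was kept in all 31 alternatives tried for each. Ccr6 ranged from 0.83 to 1.23 on the log2 scale with 1 sample left out. Genes called numbered 0 with limma, 1 with the sample set in limma and in edgeR (Ccr6), 31 with DESeq2, 144 with DESeq2 and the set, 0 to 4 with 1 sample left out (4 without WT replicate 4) and 0 to 14 with 1 left out and the set in the model (14 without K187R replicate 3). Receptors called numbered 1, Ccr6, with the set in limma, edgeR and DESeq2, and 0 to 1 with 1 sample left out and the set. Of the other listed chemokine and pathway genes, DESeq2 with the set called 5 (Ccl1, Ccl22, Ccl5, Grk3 and Rgs2), and leaving out 1 sample with the set called 0 to 1 (Ccl22). Receptors whose groups did not overlap numbered 0 to 2 with 1 sample left out: Ccr6 and Cxcr6 without WT replicate 2 (7.18% of tested genes), and Ccr6 without K187R replicate 4 (6.98%). Why these counts moved was not tested.

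Deviations of samples with the same replicate number correlated at 0.592, 0.663, -0.0922 and 0.63, and 6 of 8 samples correlated best with their own number. Since number 3 did not, the numbers were not taken to pair the samples. With the replicate number as a block limma called 0 genes and edgeR 0 (2046 and 1930 at an unadjusted p under 0.05), and Ccr6 had adjusted p-values of 0.199 and 0.222. DESeq2 with the block called 174 genes (1.02% of those tested), 1 receptor (Ccr6) and 3 pathway genes (Elmo1, Rac2 and Rgs2).

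Log2 differences changed sign with the sample set for Ccr2 (-0.035 in limma, -0.039 in edgeR and DESeq2), Ccr8 (0.062, 0.061 and 0.060) and Cxcr6 (-0.041, -0.045 and -0.045), and without the samples of high Xist for Ccr4 (-0.16). Over all fits with 1 sample left out, with and without the set, they ran from -0.14 to 0.50 for Ccr2, -0.25 to 0.26 for Ccr4, -0.12 to 0.026 for Ccr7, -0.22 to 0.20 for Ccr8, -0.24 to 0.52 for Ccr9, -0.15 to 0.19 for Cxcr6 and -0.15 to 0.38 for Ccl20. The confidence intervals of the receptors other than Ccr6, with the groups alone, include 0.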
